A study of Mus musculus with 41 samples.

Results

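The 2 opposed trimethyl marks of histone H3, H3K4me3 and H3K27me3, were set against each other at gene promoters of post-ischemia macrophages (PIM). A promoter was the stretch within 2000 bp on either side of any annotated transcription start site of a gene (mm10), and a gene carried a mark when at least 1 bp of a peak of that mark fell there. Of 53843 annotated genes on the autosomes and the X chromosome, 4278 carried both marks, 13473 carried H3K4me3 only, 4845 carried H3K27me3 only and 31247 carried neither.

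The study profiled histone modifications across mouse and human cells and tissues by CUT&Tag, in which an antibody tethers Tn5 transposase to a modification so that fragments are cut out and sequenced where the modification lies. PIM were sorted as CD45+ CD11b+ F4/80+ CD64+ cells from the calf muscle of C57BL/6 mice, 2 days after arteries of the hind limb were ligated, and 4 of the 41 samples, 2 PIM samples for each mark, make up the classes. Both marks were also profiled, with 2 samples each, in E14 embryonic stem cells grown with serum and LIF (ESC-ser) or with 2i and LIF (ESC-2i) and in gastrocnemius muscle of C57BL/6 mice (GAS), while H3K27me3 alone was profiled in 1 sample of bone marrow-derived macrophages of C57BL/6 mice (BMDM). The methods give the mice as females of 8 to 12 weeks of the J substrain. No uninjured muscle macrophages were compared, so no value is an effect of ischemia. The authors called peaks on the pooled samples of a mark and cell type, so there was 1 peak list per mark, no value has a replicate error and no test between cell types was possible. With 4 cell types, the smallest two-sided p of an exact sign-flip permutation test would be 0.13 after rounding. Shares are followed by 95% Wilson intervals and medians by 95% order-statistic intervals, which cover counting error only and treat genes as independent, although neighbouring genes can share a peak.

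H3K4me3 is written at transcription start sites by the COMPASS and Trithorax-type methyltransferases and marks promoters that are active or ready for use. H3K27me3 is written by Polycomb repressive complex 2 (PRC2), spreads over broad domains and accompanies silencing, above all of genes that govern embryonic development. Promoters that carry both are called bivalent, and were described first in embryonic stem cells, where CpG islands of developmental regulators hold them. The marks were measured in separate samples of many cells, so that both on 1 allele, each on a different allele and each in different cells cannot be told apart.

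Promoter sequences of genes from each class are shown to give the base composition that goes with the marks. They come from RefSeq (GRCm38.p6) and run from 250 bases before to 50 bases after the start site on the strand of the gene. Each CG dinucleotide (CpG), in which CpG islands are rich, is in capitals. Runx1, a blood lineage transcription factor of the class with both marks, has 2 windows, chr16:92826025-92826324 and chr16:92697280-92697579 (both minus strand). The first holds 2 CpG and the other 35, and each lies wholly under H3K4me3, H3K27ac and H3K18la, with no base under H3K27me3.

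Runx1, distal window: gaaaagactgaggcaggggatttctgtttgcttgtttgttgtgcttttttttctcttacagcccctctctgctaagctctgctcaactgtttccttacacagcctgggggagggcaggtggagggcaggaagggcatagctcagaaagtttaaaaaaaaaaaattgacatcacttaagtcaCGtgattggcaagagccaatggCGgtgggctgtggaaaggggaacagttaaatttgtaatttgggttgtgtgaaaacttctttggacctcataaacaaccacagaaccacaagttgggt
Runx1, proximal window: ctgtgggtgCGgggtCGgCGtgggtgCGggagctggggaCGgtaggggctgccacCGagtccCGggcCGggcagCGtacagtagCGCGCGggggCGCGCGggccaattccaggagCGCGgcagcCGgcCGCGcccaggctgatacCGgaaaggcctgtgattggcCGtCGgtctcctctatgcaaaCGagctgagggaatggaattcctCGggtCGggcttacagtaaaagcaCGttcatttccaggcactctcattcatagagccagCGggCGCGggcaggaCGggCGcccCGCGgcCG

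Pax6, which directs eye and brain development, had the most bases under both marks of any gene on the lists of developmental, macrophage and other genes drawn up for this comparison, though not of all genes. All 300 bases of its window, chr2:105668646-105668945 (plus strand), lie under both marks and none lies under H3K27ac, and it holds 18 CpG.

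Pax6: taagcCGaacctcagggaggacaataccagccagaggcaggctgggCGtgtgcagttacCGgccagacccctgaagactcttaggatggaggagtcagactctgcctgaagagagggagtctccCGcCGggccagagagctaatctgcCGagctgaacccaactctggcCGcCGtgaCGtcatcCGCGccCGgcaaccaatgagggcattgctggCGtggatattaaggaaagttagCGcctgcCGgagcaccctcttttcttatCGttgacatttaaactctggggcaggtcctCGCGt

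Ptprc, the gene of CD45, represents H3K4me3 alone. Its window, chr1:138175256-138175555 (minus strand), holds 4 CpG and lies wholly under H3K4me3, H3K27ac and H3K18la.

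Ptprc: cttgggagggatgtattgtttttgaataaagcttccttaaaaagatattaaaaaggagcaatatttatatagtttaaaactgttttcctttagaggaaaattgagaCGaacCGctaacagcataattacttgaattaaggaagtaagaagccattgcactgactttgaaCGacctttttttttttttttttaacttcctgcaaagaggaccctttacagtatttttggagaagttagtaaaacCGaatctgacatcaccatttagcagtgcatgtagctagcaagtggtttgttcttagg

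H3K27me3 alone is represented by P4ha2, a collagen prolyl hydroxylase (chr11:54100674-54100973, plus strand), and by Ctrb1, a digestive protease of the pancreas (chr8:111690961-111691260, minus strand), which lies under the widest peak of the protein-coding genes of this class. Both windows are wholly under H3K27me3 and under no active mark, yet the first holds 26 CpG and the other 1.

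P4ha2: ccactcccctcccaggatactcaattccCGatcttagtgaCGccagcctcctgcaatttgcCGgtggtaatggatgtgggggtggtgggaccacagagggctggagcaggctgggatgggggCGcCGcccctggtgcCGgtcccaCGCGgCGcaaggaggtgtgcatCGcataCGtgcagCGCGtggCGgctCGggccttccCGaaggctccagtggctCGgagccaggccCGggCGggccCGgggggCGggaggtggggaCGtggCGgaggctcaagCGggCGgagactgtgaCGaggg
Ctrb1: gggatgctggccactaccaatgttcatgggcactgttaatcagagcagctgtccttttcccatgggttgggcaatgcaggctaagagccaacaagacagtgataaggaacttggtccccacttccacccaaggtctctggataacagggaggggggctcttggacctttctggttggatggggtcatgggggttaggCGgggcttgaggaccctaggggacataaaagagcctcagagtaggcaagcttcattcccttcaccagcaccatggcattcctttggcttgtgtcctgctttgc

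Il1a, an inflammatory cytokine whose promoter carried neither mark, has 5 CpG in its window (chr2:129309923-129310222, minus strand).

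Il1a: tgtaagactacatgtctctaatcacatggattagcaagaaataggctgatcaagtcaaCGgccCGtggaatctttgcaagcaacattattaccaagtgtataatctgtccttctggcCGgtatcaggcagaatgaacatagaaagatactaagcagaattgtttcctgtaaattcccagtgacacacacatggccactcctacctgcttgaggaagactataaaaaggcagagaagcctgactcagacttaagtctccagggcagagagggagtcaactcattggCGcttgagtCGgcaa

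Over 20370 protein-coding genes with a RefSeq promoter, the median number of CpG per 300 bases was 11, and 94.9% of the promoters held the letters CG at least once (the motif reads the same on both strands). The median was 19 with both marks, 20 with H3K4me3 only, 10 with H3K27me3 only and 3 with neither. The 2 classes with H3K4me3 were thus close in CpG count, and H3K27me3 alone lay between them and the promoters without either mark.

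Before the classes are read, 1 mismatch with the description of the animals is given. The methods name female mice, but the PIM H3K4me3 list had 46 peaks on chromosome Y, at the promoters of 4 of 4 Y genes examined (Kdm5d, Eif2s3y, Uty and Ddx3y), and none at Xist, the RNA of the inactive X chromosome. The GAS H3K4me3 list had 22 peaks on chromosome Y and the ESC-2i list 19, at 0 of the 4 Y genes in each case, and GAS had a peak at Xist. The X chromosome results are given separately. Among genes with H3K4me3, 24.3% (23.6 to 24.9) also had H3K27me3 on the autosomes and 24.1% (23.5 to 24.7) on all chromosomes. Autosomes held 17285 of the 17751 genes with H3K4me3, so these shares had to be close. Whether the mismatch bears on the autosomal classes was not tested. The depth of the libraries is not in the peak lists and was not used here. The peaks held 4374 Mb of fragments for H3K4me3 and 1887 Mb for H3K27me3, the total of the coverage inside them.

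The identity of the cells was checked on the genes of the 4 sorted proteins. Ptprc (CD45), Itgam (CD11b), Adgre1 (F4/80) and Fcgr1 (CD64) carried H3K4me3, H3K27ac and H3K18la and no H3K27me3, with H3K4me3 peaks of 5258, 6283, 4608 and 5884 bp. The receptor gene Csf1r and the master regulator Spi1 (PU.1) were in the same class, as was the lysosomal marker Cd68. H3K4me3 lay at 59.4% of protein-coding genes, and of the genes of other cell types it lay at 7 of 25 muscle genes, 7 of 23 T and NK cell genes, 3 of 12 B cell genes, 8 of 16 neutrophil and mast cell genes, 8 of 15 endothelial genes and 7 of 20 fibroblast and pericyte genes. Myod1, Acta1, Cd3e and Cldn5 had no H3K4me3 peak, and Ttn had no peak of either mark. Among those with H3K4me3 were Pecam1, an endothelial and leukocyte adhesion gene (3924 bp), and the fast muscle genes Mylpf (2268 bp), Tnni2 (1406 bp) and Myoz1 (1648 bp), which had H3K4me3 with H3K27ac. The part that such cells have in the classes was not tested.

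Of all genes, 33.0% had H3K4me3 at a promoter, 16.9% had H3K27me3 and 7.95% (7.72 to 8.18) had both. Protein-coding genes, 21755 in number, carried the marks more often, with 59.4% for H3K4me3, 26.4% for H3K27me3 and 14.5% (14 to 15) for both. In these genes the remaining classes took 44.9% (H3K4me3 only), 11.9% (H3K27me3 only) and 28.7% (neither). Other biotypes had both marks less often, in 8.45% of antisense RNA genes, 5.07% of lincRNA genes and 0.802% of processed pseudogenes, of which 90.5% had neither.

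Of the genes with H3K27me3, 46.9% (45.9 to 47.9) also had H3K4me3, where 33.0% of all genes did, and of the genes with H3K4me3, 24.1% also had H3K27me3, where 16.9% of all genes did. Among genes without H3K4me3 the share with H3K27me3 was 13.4%, but among protein-coding genes it was 29.4% without and 24.4% with H3K4me3. The direction of that contrast thus depended on whether non-coding genes, most of which had neither mark, were counted. When each list was cut to its peaks of larger total signal, genes with both marks fell to 2047 and the share of H3K4me3 genes with H3K27me3 to 14.8%. An overlap of at least 500 bp in place of 1 bp left 4045 genes with both marks, so few of them hung on peaks that just touched a promoter.

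**Figure D1:**
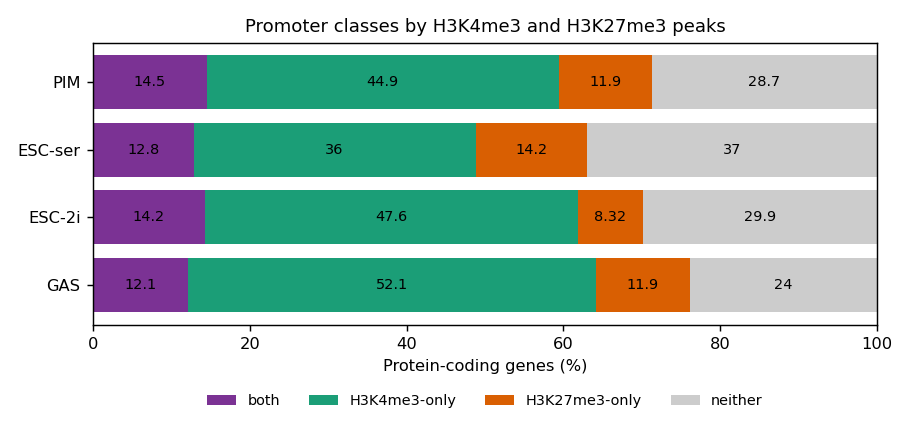
Shares of protein-coding genes (percent, x axis) with both marks, H3K4me3 only, H3K27me3 only and neither, as stacked bars for PIM, ESC-ser, ESC-2i and GAS (y axis), each from 1 pooled peak list per mark and so without error bars. In PIM 14.5% of protein-coding genes carried both marks, against 12.1% to 14.2% in the other cell types.

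Macrophage genes as a group carried H3K4me3, and a few carried H3K27me3 as well. Of 21 macrophage identity genes, 16 had H3K4me3 only and 5 had both marks, where 44.9% and 14.5% of protein-coding genes did. The widest H3K4me3-only peaks of the list were at Tyrobp, an adaptor of activating receptors (12821 bp), Cd68 (12255 bp), the lysozyme gene Lyz2 (12041 bp), the myeloid transcription factor Irf8 (11585 bp) and the scavenger receptor Msr1 (10595 bp). These were at least 3 times as wide as the median of 2935 bp for H3K4me3-only genes.

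The macrophage genes with both marks differed in how the marks lay. At Runx1 the widest H3K4me3 peak was 8252 bp with a maximum coverage of 926 fragments, and the widest H3K27me3 peak (8823 bp, maximum 20) began 125 bp from the nearest H3K4me3 and shared no base with it. Mertk, the receptor for uptake of apoptotic cells, had an H3K4me3 peak of 3947 bp inside an H3K27me3 peak of 8248 bp (maximum 67), and was H3K4me3-only in the other 3 cell types. The complement genes C1qa and C1qc share an H3K4me3 peak of 9433 bp and an H3K27me3 peak of 3011 bp with a maximum of 28, and both were H3K27me3-only in ESC-ser, ESC-2i and GAS. All 5 had H3K27ac, the acetylation of active promoters and enhancers.

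Genes of the inflammatory response were spread over the classes much as protein-coding genes were, with somewhat more H3K4me3-only genes. Of 24 genes of inflammation, cytokines and chemokines with the enzyme genes Ptgs2 and Nos2 among them, 14 had H3K4me3 only, 3 had both marks, 1 had H3K27me3 only and 6 had neither, or 58.3%, 12.5%, 4.17% and 25%, where the shares of protein-coding genes were 44.9%, 14.5%, 11.9% and 28.7%. Tnf (4316 bp, maximum 863), the chemoattractant Ccl2 (5586 bp) and the anti-inflammatory cytokine Il10 (5027 bp) were H3K4me3-only. Those with both were Il12a, a subunit of the cytokine IL-12, whose H3K4me3 peak of 4592 bp lay whole within an H3K27me3 peak of 5083 bp, the prostaglandin synthase Ptgs2 (1180 shared bp) and the neutrophil attractant Cxcl1 (1250 shared bp). Nos2, the inducible nitric oxide synthase, was the H3K27me3-only gene, with a peak of 11983 bp, and it had H3K27me3 in BMDM as well. The genes with neither mark were Il1a, Il12b, Cxcl9, Ccl5, Ccl22 and Ccl17.

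Of 24 repair and tissue macrophage genes, 12 had H3K4me3 only, 6 had both and 6 had neither, or 50%, 25% and 25%, where the shares of protein-coding genes were 44.9%, 14.5% and 28.7%. The mannose receptor Mrc1 (6495 bp) and the heme oxygenase Hmox1 (6346 bp, maximum 840) were H3K4me3-only. The genes with both marks were growth factors and matrix genes and a nuclear receptor. Igf1, a growth factor of muscle repair, had an H3K4me3 peak of 5233 bp (maximum 241) that lay whole within an H3K27me3 peak of 18584 bp (maximum 149). Vegfa, the vascular growth factor induced by hypoxia, had narrower and lower H3K4me3 (3719 bp, maximum 38) beside H3K27me3 of 12300 bp (maximum 152). At Pdgfb, another growth factor, the H3K4me3 peak of 1073 bp sat inside H3K27me3 of 16654 bp, with no H3K27ac or H3K18la. Pparg, a lipid-sensing nuclear receptor, had 962 shared bp, and the matrix genes Mmp14 and Thbs1 had weak H3K27me3 with maxima of 16 and 24. Igf1, Vegfa, Pparg, Mmp14 and Thbs1 had H3K27ac.

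Interferon response and hypoxia genes were chiefly H3K4me3-only. Of 21 interferon genes, 19 (90.5%) had H3K4me3 only, where 44.9% of protein-coding genes did, among them the transcription factor Irf9 (5474 bp, maximum 1220) and the antiviral GTPase Mx1 (6245 bp). The ubiquitin-like Isg15 had both marks with 482 shared bp, and the cytokine Ifnb1 had neither. Of 30 genes of hypoxia and glycolysis, 25 (83.3%) had H3K4me3 only and 4 (13.3%, close to the 14.5% of protein-coding genes) had both marks, with the glycolytic enzymes Tpi1 (10815 bp) and Pfkfb4 (8738 bp) the widest. Epas1 (HIF-2 alpha), Vegfa, the oxygen-sensing hydroxylase Egln3 and the vascular peptide gene Adm had both marks, and P4ha2 had H3K27me3 alone (27309 bp). Adm had the broadest H3K27me3 of the 4, 23862 bp with a maximum of 240, and neither acetylation nor lactylation. All 25 housekeeping genes had H3K4me3 only.

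**Figure D2:**
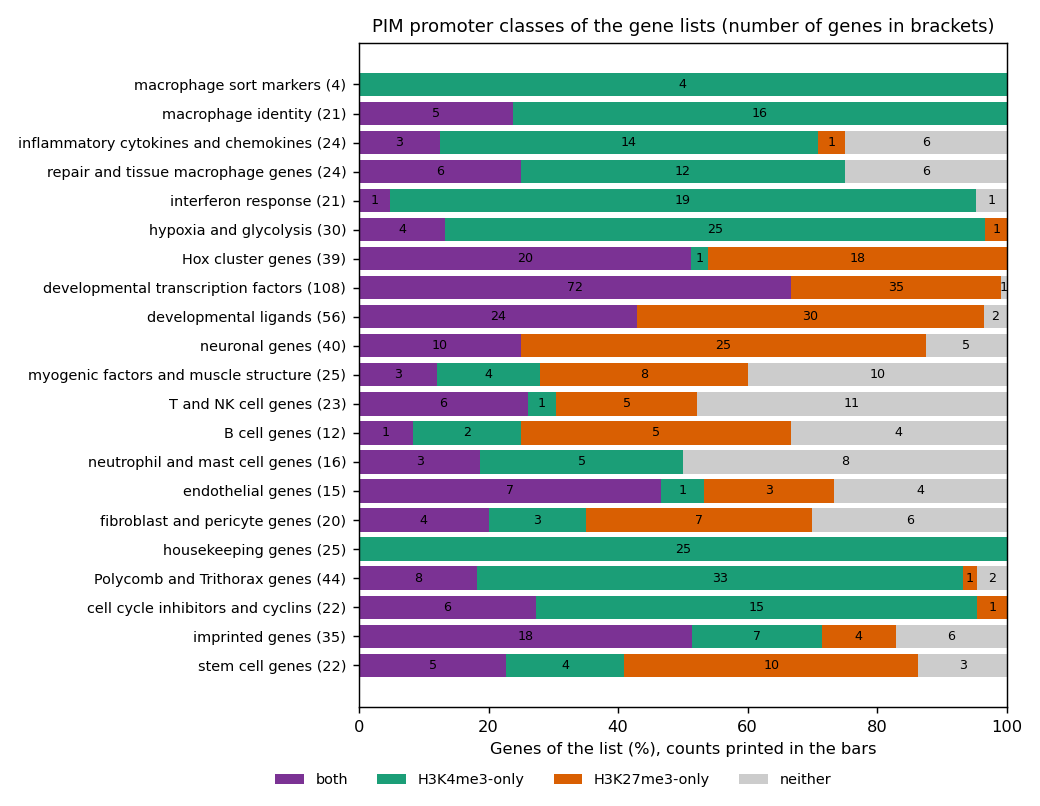
Share of each gene list in the 4 PIM classes (percent, x axis), as 1 stacked bar per list with the number of genes found in brackets and the count of each class in the bar. Macrophage, interferon, hypoxia and housekeeping lists are chiefly H3K4me3-only, and the Hox and developmental lists hold chiefly both marks or H3K27me3 only.

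Developmental genes had the opposite make-up. Of 108 developmental transcription factors, 72 carried both marks and 35 carried H3K27me3 only, so that 107 had H3K27me3, where 26.4% of protein-coding genes did. The exception was Gata1, an erythroid factor with neither mark, and no gene of the list was H3K4me3-only. Pax6 had the broadest joint domain of the list, with an H3K4me3 peak of 20482 bp (chr2:105666249-105686730) inside an H3K27me3 peak of 48970 bp (chr2:105648117-105697086). Zic4, a factor of cerebellar development, had 14509 shared bp, and Gata3, a factor of T cells and of several embryonic tissues, had 11948 shared bp, summed over its promoter windows. The widest domains among the H3K27me3-only factors were those of Cdx2 of the intestine (63163 bp), Pitx1 of the hind limb (56370 bp) and Pax2 of the kidney (52025 bp), similar to those of Zic4 (63082 bp) and Tfap2a (55851 bp), which carried both marks.

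H3K27ac was nearly absent from these factors. It lay at the promoters of 4 of the 72 with both marks, Gata3, Irx5, Meis1 and Tal1, while 43.2% of all genes with both marks had it. These 4 had high H3K4me3, with maxima of 1582, 2090, 1983 and 886, against a median of 192 for genes with both marks. Tal1 and Meis1 act in blood stem and progenitor cells, and both carried both marks in all 4 cell types.

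Of 39 Hox genes, the homeobox genes that set position along the body axis, 20 (51.3%) had both marks, 18 (46.2%) had H3K27me3 only and 1 had H3K4me3 only, where 14.5%, 11.9% and 44.9% of protein-coding genes did. Single H3K27me3 peaks spanned stretches of the clusters, 129413 bp of HoxC (chr15:102921989-103051401), 61621 bp of HoxB (chr11:96246871-96308491) and 54564 bp of HoxA (chr6:52205809-52260372). Hox genes are therefore not independent observations, and many of them share 1 peak. Hoxb4, known for its part in blood stem cells, was the exception, with H3K4me3 of 3029 bp (maximum 669), H3K27ac and H3K18la and no H3K27me3. Its neighbour Hoxb5 had H3K4me3 with a maximum of 43 inside the HoxB domain. Hoxa7 had the most shared bases of the HoxA genes (7432).

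Developmental ligands and their antagonists and neuronal genes leaned further towards H3K27me3 alone. Of 56 ligands, 24 (42.9%) had both marks, 30 (53.6%) had H3K27me3 only, where 14.5% and 11.9% of protein-coding genes did, and 2, Bmp5 and Gdf5, had neither. The Notch ligand Dll1 (5838 shared bp) and the growth factor Fgf9 (7434 shared bp) had their whole H3K4me3 peak under H3K27me3, while the morphogen Shh had H3K27me3 only (14566 bp). Inhba, Fgf20, Jag1 and Jag2 were the ligands with H3K27ac. Of 40 neuronal genes, 10 (25%) had both marks, 25 (62.5%) had H3K27me3 only and 5 had neither (Gria1, Gabra2, Scn2a, Syt1 and Cntnap2). Among those with both, the GABA-synthesizing enzyme gene Gad1 and the glutamate receptor gene Grin1 had H3K4me3 maxima of only 53 and 54.

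The lists of other cell types were spread over several classes. Beside 14.5% of protein-coding genes with both marks and 11.9% with H3K27me3 only, endothelial genes had both marks in 7 of 15 cases (46.7%), among them the cadherin Cdh5 and the VEGF receptor Kdr, and H3K27me3 only in 3 (Egfl7, Sox18 and Cldn5). Of 20 fibroblast genes, 4 (20%, near the share of protein-coding genes) had both marks, namely Col1a1, Pdgfra, Pdgfrb and Cspg4, and 7 (35%) had H3K27me3 only. At Col1a1, the main collagen gene, the H3K4me3 maximum was 55. Of 23 T and NK cell genes, 6 (26.1%) had both, namely Cd3d, Lck, Tcf7, Gata3, Tbx21 and Eomes, and 11 had neither.

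H3K27me3 peaks were fewer and broader than H3K4me3 peaks. The lists held 15798 H3K27me3 peaks with a median width of 4275 bp and 25448 H3K4me3 peaks with a median width of 2130 bp, and the widest were 189058 and 38414 bp. H3K27me3 peaks covered 103 Mb in all and H3K4me3 peaks 65.1 Mb. At promoters lay 62.8% of the H3K4me3 peaks and 49.4% of the H3K27me3 peaks, and peaks there were wider than elsewhere for both marks (2493 against 1716 bp and 5955 against 3358 bp, medians).

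Of the H3K4me3 peaks, 4578 (18%) overlapped an H3K27me3 peak, 21.1% of those at promoters and 12.7% of the others. Of the H3K27me3 peaks, 3748 (23.7%) overlapped an H3K4me3 peak, 39.3% of those at promoters and 8.48% of the others. The usual arrangement was a narrow H3K4me3 peak nested in a broad H3K27me3 peak: 70.4% of the overlapping H3K4me3 peaks lay wholly inside H3K27me3, and 4.64% of the overlapping H3K27me3 peaks lay wholly inside H3K4me3. Over the genome the lists shared 10459101 bases, which were 16.1% of the bases under H3K4me3 and 10.2% of those under H3K27me3.

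Where both marks met, H3K4me3 was lower and slightly narrower and H3K27me3 was higher and broader than where each stood alone. Per gene, by its widest peak, the median H3K4me3 width was 2656 bp (2596 to 2716) with both marks and 2935 bp (2905 to 2966) with H3K4me3 only, a log2 ratio of -0.14. The maximum coverage differed more, with medians of 192 fragments (183 to 199) and 409 (400 to 415), a ratio of 0.469. For H3K27me3 the median width was 8174 bp (7908 to 8453) with both marks and 6864 bp (6626 to 7018) with H3K27me3 only, 1.19-fold, and the maxima were 92 (89 to 94) and 60 (58 to 62). The distributions overlapped widely, with the middle 50% of H3K4me3 widths at 1825 to 3822 bp with both marks and 2166 to 4041 bp with H3K4me3 only. The H3K4me3 width difference turned to a log2 ratio of 0.17 when each list was cut to its peaks of larger total signal. The H3K27me3 difference shrank to 0.04 there. Total signal is coverage summed over a peak and grows with its width, so this cut is not independent of the widths compared.

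In the other cell types the H3K27me3 width ratio had the same sign, with log2 ratios of 0.68 in ESC-ser, 0.43 in ESC-2i and 0.23 in GAS against 0.25 in PIM. Among protein-coding genes the GAS medians were nearly equal, at 4397 bp with both marks and 4412 bp with H3K27me3 only, and the log2 ratio was 0.16 in PIM. The H3K4me3 width ratio did not, at -0.02, 0.12 and -0.30 against -0.14. The log2 ratio of the H3K4me3 maximum was -1.09 in PIM, close to -1.06 in GAS and lower than -0.35 in ESC-ser and -0.24 in ESC-2i. Signal was not scaled to depth by the authors, so it is compared here only within a list.

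**Figure D3:**
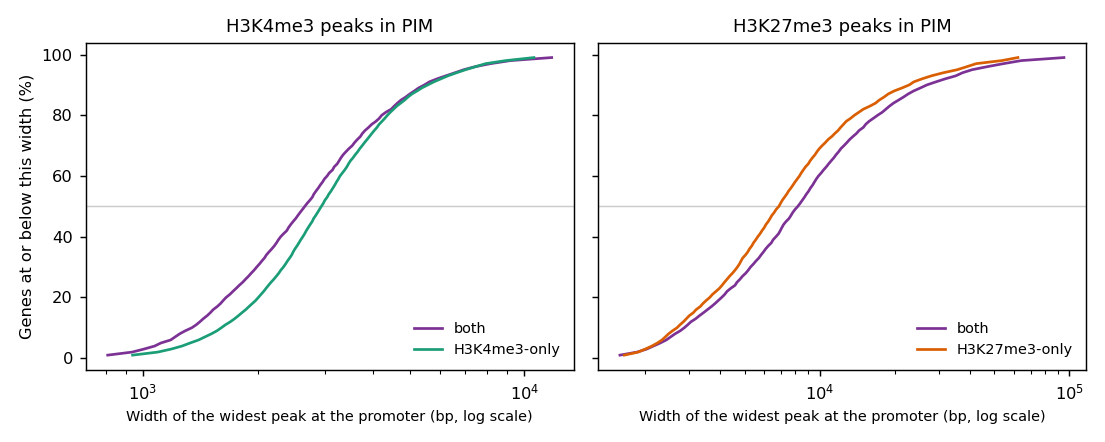
Cumulative share of PIM genes (percent, y axis) whose widest promoter peak is at or below a width (bp, log x axis), with H3K4me3 peaks on the left and H3K27me3 peaks on the right and a line per class. The medians (grey line) are 2656 bp with both marks and 2935 bp with H3K4me3 only for H3K4me3, and 8174 bp with both marks and 6864 bp with H3K27me3 only for H3K27me3, and the lines lie close together.

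The share of H3K4me3 genes that also had H3K27me3 fell with the height of H3K4me3. When the genes were cut into 5 groups of equal size by maximum H3K4me3 coverage, it was 50.8% in the lowest (maxima of 16 to 153), then 26.5%, 16.6%, 13.5% and 13% in the highest (maxima of at least 700). H3K27ac ran the other way, from 32.9% of the lowest group to 96.3% of the highest. By H3K4me3 width the range was smaller, 33.5% in the narrowest group and 20.3% to 23.5% in the others. From the side of H3K27me3, the share with H3K4me3 went from 33.5% in the lowest group by maximum coverage to 67.0% in the highest, and from 42.4% in the narrowest group to 53.4% in the broadest. By height, the genes with the highest H3K27me3 thus had H3K4me3 most often, and those with the highest H3K4me3 had H3K27me3 least often, whereas by H3K4me3 width the broadest group (22.7%) was not the lowest.

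Of the 4278 genes with both marks, 3687 (86.2%, 85.1 to 87.2) had bases under both inside a promoter, with a median of 2110 shared bp (quartiles 1350 and 3129). In 4062 (95%) both marks fell in the window of the same start site. Among the 591 genes without shared bases, 281 (47.5%) had the marks within 1000 bp of each other, as at Runx1 and Hoxa4, and 216 (36.5%) had them only at different start sites. Sharing was found at 92.8% of such genes in ESC-ser, 87.9% in ESC-2i and 73.6% in GAS.

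Along protein-coding promoters with both marks, aligned at the start site farthest upstream, H3K4me3 covered 67.7% of genes at the start site and was highest 300 bp upstream (71.5%), while H3K27me3 covered 68.0% at the start site. H3K27me3 stayed above 50% of its height from 5800 bp upstream to 5600 bp downstream, whereas H3K4me3 did so from 1300 bp upstream to 2200 bp downstream. H3K27ac covered 30.0% of these start sites and H3K18la 17%, against 80.5% and 43.0% of H3K4me3-only start sites. At H3K27me3-only genes H3K27me3 covered 78.6% at the start site and was highest 800 bp downstream (82.1%).

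**Figure D4:**
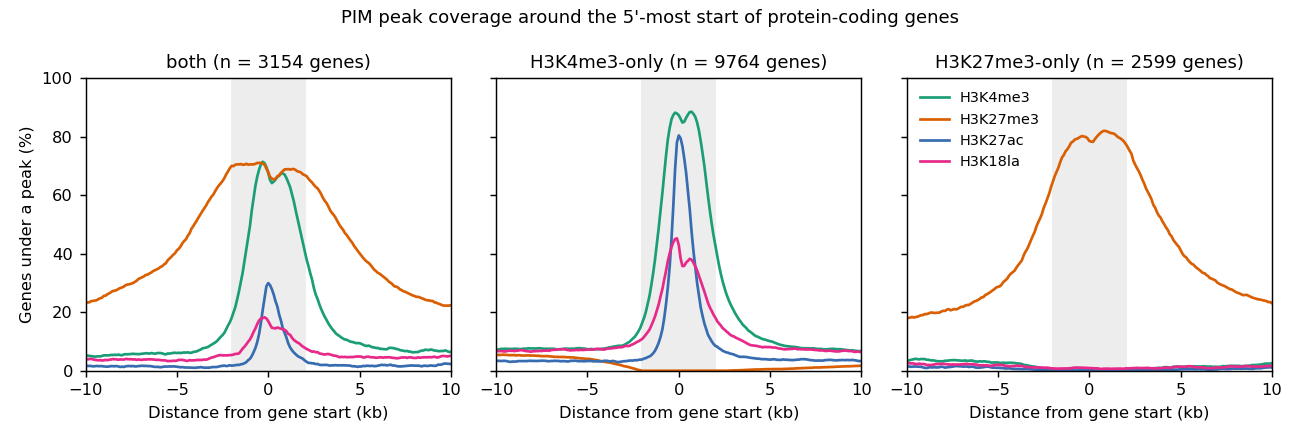
Share of PIM protein-coding genes (percent, y axis) under a peak of each mark by distance from the start site farthest upstream (kb, x axis; negative is upstream), with a panel per class and the 2000 bp on either side shaded. With both marks, H3K4me3 forms a narrow hump over a broad plateau of H3K27me3, and H3K27ac covers 30.0% of start sites.

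The acetylation H3K27ac and the lactylation H3K18la, which the classes did not use, were called on other PIM samples. H3K27ac came from 1 sample and H3K18la from 2 pooled samples. Of all genes, 26.1% had H3K27ac and 22.8% had H3K18la at a promoter. H3K27ac lay at 43.2% (41.7 to 44.7) of genes with both marks, 87.4% of H3K4me3-only genes, 1.55% of H3K27me3-only genes and 1.06% of genes with neither. H3K18la lay at 39.5%, 68.3%, 4.75% and 3.67%. The drop from H3K4me3-only genes to genes with both was thus 44.1 percentage points for H3K27ac and 28.8 for H3K18la, and the second fell to 15.9 when each list was cut to its peaks of larger total signal. Each mark was counted anywhere in the promoter windows, so H3K27ac and H3K27me3 of a gene need not cover the same bases.

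Where the marks shared bases, H3K27ac was less frequent. It lay at 37.8% of genes whose marks shared bases and at 77.3% of those whose marks lay apart, and H3K18la at 36.5% and 58.4%. In BMDM, grown from bone marrow, H3K27me3 was found at 12.9% of all genes, at 61.3% (59.8 to 62.7) of the PIM genes with both marks and at 69.7% of the H3K27me3-only genes. Of the 13473 H3K4me3-only genes, 50 (0.371%) had it. The share of 61.3% was 51.0% with each list cut to its peaks of larger total signal. It was 79.6% when PIM H3K27me3 was cut to the bases of PIM H3K4me3. That cut kept 5328 of 15798 PIM H3K27me3 peaks and left the BMDM list whole, so the PIM and BMDM lists were not matched. H3K27me3 of genes with both marks was found again in BMDM more often where the marks shared bases (65.3%) than where they did not (36.4%).

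CpG islands, found by length, GC content and CpG frequency in the genome, lay at 30.6% of all promoters. They lay at 81.0% of promoters with both marks, 75% of H3K4me3-only, 43.1% of H3K27me3-only and 2.56% of promoters with neither. The gap of 37.9 percentage points between both marks and H3K27me3 only was 25.5 with protein-coding transcripts and 25.2 with each list cut to its peaks of larger total signal. Of 16457 genes with an island, 21.1% had both marks, 61.4% had H3K4me3 only, 12.7% had H3K27me3 only and 4.86% had neither, while 81.4% of genes without an island had neither. With islands alone H3K27ac dropped from 95.3% of H3K4me3-only genes to 45.9% of genes with both marks. Without an island it dropped from 63.7% to 31.9%, which was less in percentage points. Median GC content around the start site was 58.2% with both marks, 56.4% with H3K4me3 only, 52.5% with H3K27me3 only and 44.0% with neither.

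**Figure D5:**
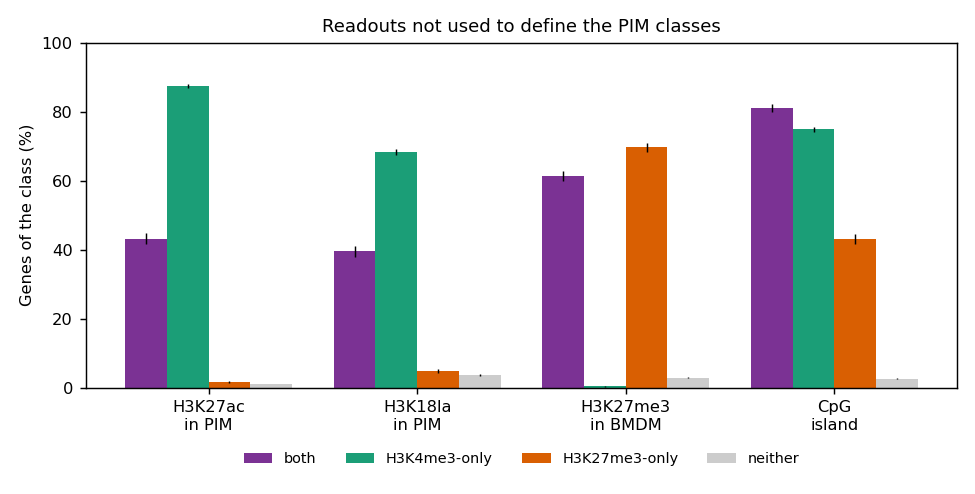
Share of the genes of each PIM class (percent, y axis) with H3K27ac or H3K18la in PIM, H3K27me3 in BMDM or a CpG island at a promoter, with 95% Wilson intervals that cover counting error only. Genes with both marks lie between H3K4me3-only and H3K27me3-only genes for H3K27ac (43.2%) and H3K18la (39.5%) and have CpG islands most often (81.0%).

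In the other cell types, 40.4% of the PIM genes with both marks also had both in ESC-ser, 41.7% in ESC-2i and 41.3% in GAS, where 6.74%, 7.54% and 6.60% of all genes had both marks. The ESC-ser share was 25.7% with each list cut to its peaks of larger total signal, and the GAS share 28.0% with the start site required inside a peak. In ESC-2i and GAS the other PIM genes with both marks were mostly H3K4me3-only (44.7% and 49.3%), and in ESC-ser they were split between H3K4me3-only (25.5%) and H3K27me3-only (23.3%). Read in the other direction, 47.6% of ESC-ser genes with both marks had both in PIM (7.95% of all genes), 22.7% had H3K4me3 only and 26.8% had H3K27me3 only. For ESC-2i these were 43.9%, 16.7% and 33.7%, and for GAS 49.7%, 15.8% and 29.4%.

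Each list of developmental genes held some genes with both marks in every cell type, but their number differed. Of the 108 developmental transcription factors, 72 had both marks in PIM, 70 in ESC-ser, 93 in ESC-2i and 79 in GAS, beside 14.5%, 12.8%, 14.2% and 12.1% of all protein-coding genes in these cell types. The Hox genes varied more, with 20 in PIM, 2 in ESC-ser, 31 in ESC-2i and 22 in GAS. Of the 56 developmental ligands, 24 had both marks in PIM, 43 in ESC-ser, 41 in ESC-2i and 38 in GAS. H3K27me3 lay in BMDM at 107 of the 108 factors and at 36 of the 39 Hox genes, beside 19.2% of protein-coding genes. Of the 40 neuronal genes, 10 had both marks in PIM and 20 to 24 in the other cell types, against the same background shares.

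Genes with both marks in all 4 cell types numbered 694 (16.2% of the PIM set), among them Pax6, Gata3, Meis1 and Tal1. Of these, 90.5% had H3K27me3 in BMDM, 93.2% had shared bases and 29.8% had H3K27ac. Another 1430 (33.4%) had both marks in PIM and in none of the other 3 cell types, and 749 of these were H3K4me3-only in all 3. Of the 1430, 36.5% had H3K27me3 in BMDM, 79.0% had shared bases and 53.4% had H3K27ac. Mertk, the complement genes C1qa and C1qc, Igf1 and the Polycomb gene Cbx7 belong to them. Genes with both marks in PIM alone of the 4 cell types thus had H3K27me3 in BMDM less often, and H3K27ac more often, than genes with both marks in all 4.

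Among the 10 protein-coding genes with most shared bases were Pax6, Zic4, Gata3, Tfap2a, Lhx2 and Sox6, with 10291 to 20181 shared bp. The list also held Cttn, the actin-binding cortactin, with 22950 shared bp, and Sfi1, a centrosome gene with the most (32153 bp). The H3K4me3 maximum of Sfi1, 8137, was far above the median of 192. Sfi1 had both marks in the other 3 cell types too, with H3K27ac and H3K18la in PIM. Cttn was H3K4me3-only in the other 3 cell types and its H3K27me3 peak was 84515 bp wide. The highest H3K4me3 maxima with both marks were at the predicted genes Gm10800 (481423), Gm10715 (110005), Gm21738 (70170) and Gm10801 (47544), where H3K27me3 was also high at 3 of them (11499, 1959 and 1921). These maxima lay far above the median of 192. Each of these predicted genes also had H3K27ac and H3K18la in PIM, H3K27me3 in BMDM, both marks in ESC-2i and GAS, and no CpG island. The paper describes the removal of peaks in blacklist regions. No such filter was added here, and whether the deposited lists carry it was not examined. The cause of these maxima was not tested. Leaving out all peaks above 20 times the median maximum of their list gave 4245 genes with both marks.

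Protein-coding H3K4me3-only genes with the widest peaks included the nuclear envelope gene Syne3 (20868 bp), the cytolinker Plec (20516 bp) and the lysosomal genes Psap (15195 bp) and Ctsb (14997 bp). Among protein-coding genes, the widest H3K27me3-only domains were at Ctrb1 (167203 bp), Hoxc11 (129413 bp) and Rcan2, a calcineurin inhibitor (82172 bp), followed by Cdx2 and the synaptic gene Nptx1 (62623 bp). No gene of that group of 10 had H3K27ac, which lay at 1.96% of all protein-coding H3K27me3-only genes.

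On the X chromosome, H3K27me3 was less frequent than on autosomes. A PIM promoter had H3K27me3 at 7.77% (6.80 to 8.85) of X genes and 17.4% (17.1 to 17.7) of autosomal genes, and among genes with H3K4me3 at 86 of 466 (18.5%, 15.2 to 22.2) against 24.3%. In GAS the order was opposite, with 34.5% of the X genes with H3K4me3 against 18.3% on autosomes, and in ESC-ser (16.9% against 26.4%) and ESC-2i (13.3% against 23.0%) it was as in PIM. Of these cell types, GAS had a peak at Xist and the other 3 had none, while peaks at Y genes were found in PIM and not in ESC-ser or ESC-2i, and the part of either in the X chromosome shares was not tested. With the start site required inside a peak, the difference between X and autosomes in PIM shrank from -5.80 to -3.52 percentage points (-6.68 to 0.25).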

How the data were processed

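CUT&Tag peak lists of 2 PIM samples each for H3K4me3 and H3K27me3 were used, with 11 of the 24 deposited lists read in all. Per the labels and the submitters' processing notes, reads were checked with FastQC 0.11.0, trimmed with Trim Galore 0.6.6 and aligned to mm10 with Bowtie2 2.4.4, and SAMtools 1.13 and bedtools 2.30 were applied. The authors merged the coverage of replicates and called peaks with SEACR 1.3 (stringent, top 1% of regions), and each deposited peak gives the total and maximum signal (fragment coverage, not scaled to depth). Handling of duplicates is not given in the sources used here. ESC lists without a medium in their name were taken as ESC-ser.

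Promoters were 2000 bp around every transcript start of GENCODE M21, CpG islands (at least 200 bp, GC 50%, observed over expected CpG 0.6) were found in GRCm38.p6, and overlaps of at least 1 bp were computed in Python 3.11.15 (numba 0.67.0, scipy 1.17.1, pandas 2.3.3 and numpy 2.4.6) and tested on simulated data against bedtools 2.31.1. Figures were drawn with matplotlib 3.10.9. Depth per sample is not in the peak lists and was not used here. Members and gene lists were chosen with earlier results of these data known. Named genes were up to 8 a list (widest H3K4me3 peak among H3K4me3-only, widest H3K27me3 peak among H3K27me3-only, most shared bases among both, and members of classes of 5 or fewer) and the 10 leading protein-coding genes by each of 4 rankings. Genes of the marker check and those cited for H3K27ac, for CpG counts or for their class in other cell types were added after their values were seen. Some genes that the rule selects are not reported here. Alternatives changed the promoter width, overlap, biotype, peak threshold, total bases and joining of peaks.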

Additional observations from a re-analysis of the deposited data

Results flagged for a closer look

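Signal on chromosome Y lay outside the promoter comparison. The PIM H3K4me3 list had 46 peaks on chromosome Y, at the promoters of 4 of the 4 Y genes examined (Kdm5d, Eif2s3y, Uty and Ddx3y), although the methods name female mice. The PIM H3K27ac list had 8 peaks on chromosome Y and the H3K18la list had 20, each at 3 of the 4 genes (not Kdm5d). GAS, ESC-ser and ESC-2i lists had none at these genes. The cause was not tested.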

How the results depend on the processing

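Of 114 alternative values, 58 stayed within the 95% interval of the value reported or, for gene counts, within 1.5 times, 55 moved further and 1 reversed; the cause was not tested. The ratio of median H3K4me3 widths (log2 -0.14) reversed to 0.17 with each list cut to its peaks of larger total signal. Total signal grows with peak width, so that cut is not independent of the widths. The H3K4me3 ratio was -0.10 with equal bases in both lists, -0.08 with the start site inside a peak and -0.06 with peaks joined. The H3K27me3 ratio (0.25) was 0.13 with protein-coding transcripts, 0.04 with the cut lists, 0.10 with equal bases and 0.16 with the start site inside a peak. Genes with both marks numbered 2047 with the cut lists and 2801 with the start site inside a peak, and H3K27me3-only genes 2599 with protein-coding transcripts and 2857 with equal bases.

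The share of H3K4me3 genes with H3K27me3 (24.1%) was 22.4% within 1000 bp, 23.5% with protein-coding transcripts, 23.3% with 500 bp of overlap, 14.8% with the cut lists, 16.8% with equal bases, 18.4% with the start site inside a peak and 21.8% with the start farthest upstream. Shared bases (86.2%) became 91.2%, 88.6%, 81.1%, 90.3%, 91.6% and 91.1% under these (without protein-coding transcripts). The H3K27ac difference (44.1 points) was 48.3 within 1000 bp, 46.3 with protein-coding transcripts, 39.9 with the cut lists, 52.7 with equal bases, 50.6 with the start site inside a peak and 49.7 with the start farthest upstream. The H3K18la difference (28.8) was 30.8 within 1000 bp, 15.9 with the cut lists, 34.0 with equal bases, 26.6 with the start site inside a peak and 34.4 with the start farthest upstream.

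The 5'-most start and the removal of extreme peaks were chosen after seeing the data. No paired analysis was possible because replicates were pooled before peaks were called, and for the same reason leaving out a replicate was not run. Depth was not used here, and a weak peak missed in a list cannot be told apart from an unmarked promoter.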

Other observations

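Further lists are given here beside all protein-coding genes, of which 14.5% had both marks, 44.9% H3K4me3 only, 11.9% H3K27me3 only and 28.7% neither. Of 35 imprinted genes, expressed from 1 parental allele, 18 had both marks in PIM, 7 had H3K4me3 only, 4 had H3K27me3 only and 6 had neither. At Igf2r, a growth factor receptor, an H3K4me3 peak of 6701 bp met an H3K27me3 peak of 52418 bp, and at Airn, the RNA transcribed across it, peaks of 1762 and 43922 bp met. At H19, the maternally expressed RNA, 458 bp were shared. Whether the marks lie on different alleles was not tested.

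Of 44 Polycomb and Trithorax genes, 33 (75%) had H3K4me3 only and 8 (18.2%) had both marks, among them Bmi1, Pcgf1, Cbx7, Cbx8, Phc1, Phc2 and Kdm2b, subunits of Polycomb repressive complex 1, while Cbx2 had H3K27me3 only and Pcgf6 and Cbx6 had neither. The H3K4me3 peak of Bmi1 (4397 bp) and its H3K27me3 peak (4178 bp) had nearly the same span, and H3K27ac lay there. Of 22 cell cycle genes, 6 had both marks (Cdkn1c, Cdkn2a, Cdkn2b, Ccnd1, Ccnd2 and Cdk4). The tumour suppressors Cdkn2a and Cdkn2b lay under 1 H3K27me3 peak of 50907 bp, and the cyclin gene Ccnd2 had H3K4me3 of 7943 bp and H3K27me3 of 38222 bp with H3K18la and no H3K27ac. Of 22 stem cell genes, 10 had H3K27me3 only, with Pou5f1 (32456 bp) and Nanog (11179 bp) among them.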
